A study of Mus musculus with 14 samples.

Results

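The genes described here store fat in lipid droplets, release it again and bring it into the cell. They are Plin2, Plin4 and Cidec at the droplet surface, Dgat1 and Gpd1 in triglyceride synthesis, Lipe and Ces1d in lipolysis, and Lpl, Cd36 and Fabp4 in the capture and carriage of fatty acids. A probe set belonged to the group where the platform annotation names 1 of these genes. This gave 15 probe sets for 10 genes, of 12488 probe sets on the array, and all 10 genes had at least 1 probe set among the 8616 that passed the filter on dim signals. Of the 15 probe sets, 14 passed it. The probe set left out was the dimmer of 2 for Cd36. Where a gene had several probe sets, the one with the highest mean log2 intensity stood for it.

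A white adipocyte keeps nearly all of its triglyceride in 1 large droplet. Perilipins coat the droplet and set how far lipases reach it, and CIDE proteins let droplets fuse and grow. Glycerol 3-phosphate and fatty acids are joined stepwise into triglyceride, which lipases break down again when fat is mobilised. Lipoprotein lipase frees fatty acids from circulating lipoproteins at the capillary wall. The mouse mammary gland is embedded in a fat pad, and the mammary epithelium itself forms lipid droplets when it makes milk.

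The samples came from the MMTV-neu mouse, a transgenic line whose mammary epithelium makes the neu oncogene under a viral promoter, that of mouse mammary tumor virus. There were 5 tumors (22, 24, 26, 50 and 52), 2 further tumors of a second group called set B (80 and 81), 4 adjacent glands (23, 25, 49 and 51), described as preneoplastic gland beside a tumor, and 3 wild-type samples. Tumors, set B tumors and adjacent glands carry the transgene, and the labels give no age for them. The wild-type samples were described as age-matched and pooled RNA of 5 mice each, so they average over animals. For the other samples the labels mention no pooling. Pool 40 was from mice of 31 weeks with a background of 87.5% FVB and 12.5% CF-1, and pools 41 and 42 were from mice of 41 weeks with 97% FVB and 3% CF-1. Set B was added to see whether the changes of the first tumors would recur. Whether any of the tumors and adjacent glands share an animal is not in the labels, so the p-values speak only to the spread between these samples, which may be technical in part.

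Values are the authors' deposited intensities of 1-color oligonucleotide arrays, 1 sample per array, on a linear scale. For tests, log2 was taken after raising values under 101.42, called the floor, to that value. Differences are log2 differences from limma with their standard errors, and a gene is called at an adjusted p under 0.05 over all 8616 probe sets. Where every tumor lay at the floor, a fold is a lower bound. Such a gene has no spread among the tumors after the floor, which lowers its standard errors and p-values in every comparison. Intensities of different probe sets are not compared, since a probe set's brightness depends on its sequence.

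The 14 arrays had medians between 543.65 and 784.1 and a common trimmed mean. White adipocyte markers that are not among the 10 genes, such as Adipoq, Retn and Pparg, were detected in the wild-type pools and fell in the tumors: 11 of 11 tested were called lower, with a median log2 difference of -4.23. Their summed intensity was 230538 to 349863 in the wild-type pools, 118890 to 218953 in the adjacent glands and 17263 to 32833 in the tumors. Luminal epithelial markers went the other way, with 9 of 14 called higher and 1 lower in tumors. Of 10 endothelial markers, 8 were called lower in tumors, and of 10 macrophage markers 2 were lower and 2 higher. All 11 fibroblast and matrix markers were lower (median log2 difference -3.02). So were 6 of 7 basal and myoepithelial markers (median -2.42) and 4 of 5 brown adipocyte markers (median -2.85). Of 14 skeletal muscle markers, 12 were lower and 1 higher (median -3.68). Milk secretion genes were higher for 4 of 11 and lower for none. In these bulk samples, fewer adipocytes and less RNA per adipocyte cannot be told apart. The log2 ratio of the 3′ to the 5′ probe set of actin, a sign of RNA integrity, was 0.90 to 1.51 in the wild-type pools. It was 0.38 to 1.52 in the adjacent glands, 0.08 to 0.76 in the first tumors and 0.14 to 0.21 in set B. The same ratio of Gapdh was 0.17, 0.11 and 1.48 in pools 40, 41 and 42. For Gapdh it was -0.27 to 0.27 in the adjacent glands, -0.25 to 0.43 in the first tumors and -0.50 to -0.28 in set B. The part of these cell types and of RNA integrity in the results was not tested.

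In the first tumors, 9 of the 10 genes fell against wild-type gland and 1, Plin2, was not called. Of all probe sets tested, 14.1% were called lower and 15.8% higher in this comparison. The median log2 difference of the 10 genes was -4.73, against 0.16 over all probe sets tested. For the same 9 genes every tumor lay below every wild-type pool, which held for 16.1% of all probe sets tested. The falls ranged from 4.98-fold for Fabp4 to at least 242-fold for Ces1d. The plot of intensities by array shows each gene.

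**Figure D1:**
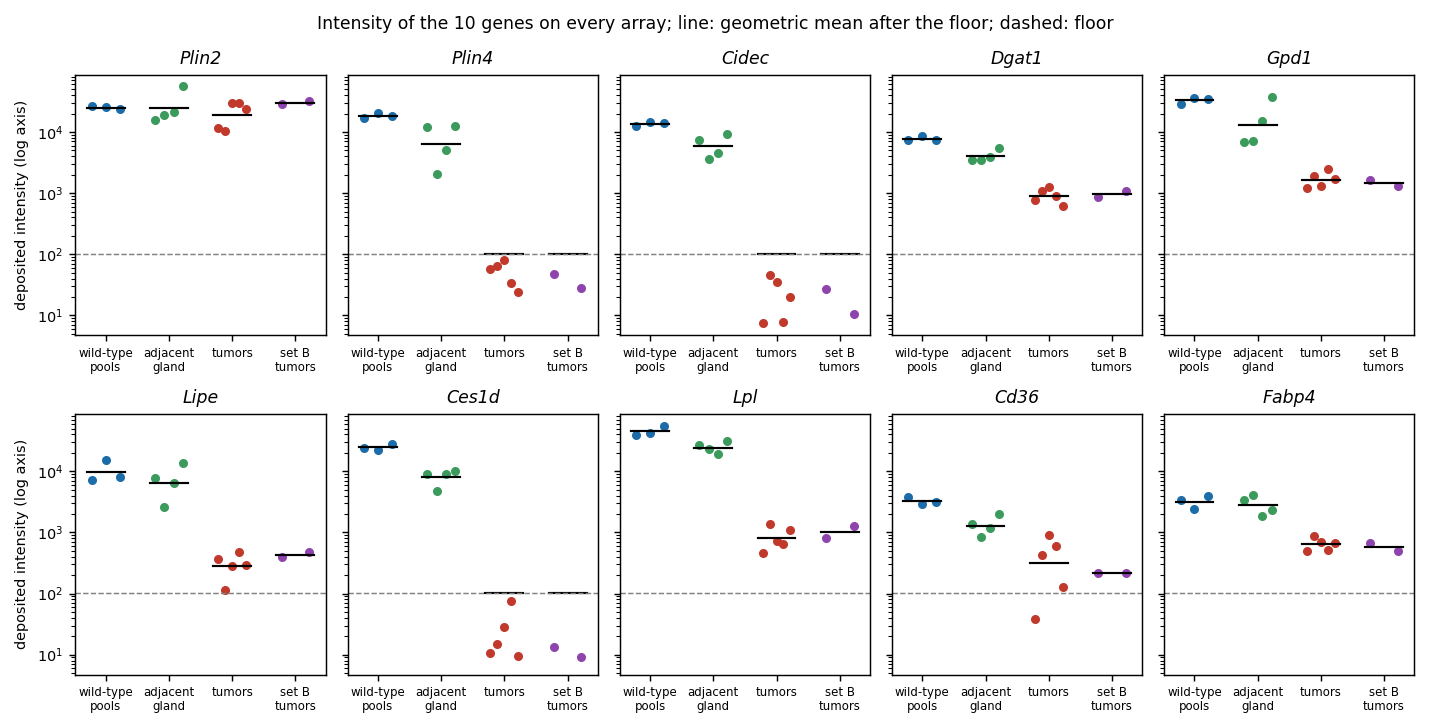
Deposited intensity (log axis) of the 10 genes on each of the 14 arrays, in the 3 wild-type pools, 4 adjacent glands, 5 tumors and 2 set B tumors. Each point is 1 array, the black line is the geometric mean after values under the floor of 101.42 (dashed) were set to it. Plin4, Cidec and Ces1d lie under the floor in all 7 tumors, while Plin2 lies between 10447 and 32095 there.

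Of the 3 droplet coat genes, Plin4 and Cidec fell to the floor in tumors and Plin2 was not called. Plin2 encodes a perilipin found on droplets of many cell types, the secreting mammary epithelium among them. Plin2 read 26201, 25372 and 23532 in wild-type pools 40, 41 and 42, and 15478, 19066, 21569 and 55539 in adjacent glands 23, 25, 49 and 51. Its tumor values were 11511, 10447, 30241, 29483 and 24050 (22, 24, 26, 50 and 52) and those of set B 28424 and 32095. Tumors 22 and 24 were low and the other tumors lay around the wild-type level, so the groups overlap. Tumor 26, from the same array lot as 22 and 24, had the highest value of the first tumors. The difference of tumors from wild-type gland was -0.38 ± 0.40 (SE, 5 and 3 arrays, limma adjusted p = 0.499), with a 95% interval from -1.24 to 0.47. Plin2 was thus neither called nor shown to be equal.

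Plin4 encodes a perilipin most abundant in white adipocytes. Plin4 read 16988, 20628 and 17967 in the wild-type pools and 12044, 2064, 5034 and 12689 in the adjacent glands. In the first tumors its values ran from 23.7 to 81.3 with a median of 57.6, and in set B they were 46.7 and 28.2. Every tumor was under the floor, and the groups do not overlap. Plin4 was at least 182-fold lower in tumors than in wild-type gland (limma adjusted p = 5.04e-09).

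Cidec, whose product enlarges droplets by lipid transfer between them, gave the same picture. Cidec read 12703, 14686 and 13949 in the wild-type pools and 7478, 3649, 4478 and 9231 in the adjacent glands. Its tumor values lay between 7.4 and 46.2, with a median of 19.8, and set B gave 27.0 and 10.5. No tumor rose above the floor. The fall was at least 136-fold (limma adjusted p = 4.35e-11).

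Promoter sequence was looked up for the 10 genes in a RefSeq table of GRCm38.p6, which held an entry for 5 of them: Plin2, Plin4, Cidec, Lipe and Cd36. Lpl, Fabp4, Dgat1, Ces1d and Gpd1 had none. The 250 bases before each start site were searched on both strands for 4 motifs. These were AGGTCA (the half-site of PPAR gamma and other nuclear receptors), held by 14.0% of all 32851 windows of this length in the table, and the TATA box TATAAA, held by 12.4%. The others were CCAAT, held by 33.8%, and the E-box CACGTG, held by 6.02%. Matches of the motifs did not overlap each other. The sequences of the 3 droplet coat genes are shown because they set the gene not called in tumors beside the 2 that lay at the floor. Each is printed 5′ to 3′ on the strand of the gene, only as far as it lies outside the annotated gene, with a motif match in capitals. All 3 genes are on the minus strand, at chr4:86670218-86670309 for Plin2, chr17:56109949-56110032 for Plin4 and chr6:113435761-113436010 for the first of 2 Cidec start sites.
Plin2: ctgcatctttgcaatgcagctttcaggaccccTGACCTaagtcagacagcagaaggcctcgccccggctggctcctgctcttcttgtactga
Plin4: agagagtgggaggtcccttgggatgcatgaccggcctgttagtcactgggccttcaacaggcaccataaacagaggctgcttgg
Cidec: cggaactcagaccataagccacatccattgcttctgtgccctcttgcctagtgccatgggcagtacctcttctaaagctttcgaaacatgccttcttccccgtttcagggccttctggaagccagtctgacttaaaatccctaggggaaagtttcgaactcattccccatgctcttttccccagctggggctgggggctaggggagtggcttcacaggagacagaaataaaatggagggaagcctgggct

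The capitals in Plin2 are AGGTCA read on the opposite strand, whose first base is 218 bases before the start site. A further Plin2 match, CCAAT at 73 bases, and the only Plin4 match, CCAAT on the opposite strand at 18 bases, lie nearer the start than the stretches printed. Neither Cidec window held any of the motifs. Cd36 held AGGTCA on the opposite strand at 228 bases and CCAAT at 195 bases, and 1 of 2 Lipe start sites held CACGTG at 155 bases. These are matches of letters in a window, and binding was not measured here.

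Both synthesis genes fell. Dgat1 encodes an enzyme that adds the last fatty acid to make triglyceride. Dgat1 read 7278, 8529 and 7451 in the wild-type pools and 3464, 3420, 3878 and 5552 in the adjacent glands. The first tumors gave 783, 1071, 1263, 890 and 611, and set B gave 859 and 1084. The 3 groups formed steps with no overlap, wild-type above adjacent above tumors. Tumors were 8.64-fold below wild-type gland (-3.11 ± 0.24, SE, limma adjusted p = 1.12e-07). A second, dim probe set of Dgat1 (96.5 to 543.1 over the 14 arrays) gave -0.70 ± 0.51 and was not called (limma adjusted p = 0.323).

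Gpd1 encodes the cytosolic enzyme that makes glycerol 3-phosphate from a glycolytic intermediate. Gpd1 read 28774, 36536 and 35122 in the wild-type pools and 6976, 7055, 15112 and 37615 in the adjacent glands. Tumors gave 1203, 1912, 1302, 2480 and 1710, and set B gave 1617 and 1305. Adjacent gland 51 lay above all wild-type pools, while every tumor lay below every other sample. The fall in tumors was 20.03-fold (-4.32 ± 0.42, SE, limma adjusted p = 1.78e-06). Its second, dimmer probe set was called in the same direction (-3.13 ± 0.38, SE).

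Of the lipolysis genes, Lipe encodes hormone-sensitive lipase, which splits diacylglycerol during fat mobilisation. Lipe read 7241, 15509 and 8157 in the wild-type pools and 7892, 2582, 6454 and 13850 in the adjacent glands. Tumors gave 374, 113, 277, 480 and 294, and set B gave 396 and 477. Adjacent and wild-type values overlap, and tumor values lie apart from both. Tumors were 35.0-fold lower than wild-type gland (-5.13 ± 0.49, SE, limma adjusted p = 1.27e-06).

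Ces1d encodes a carboxylesterase that hydrolyses triglyceride and is abundant in fat and liver. Ces1d read 24383, 21995 and 27536 in the wild-type pools and 9126, 4790, 9163 and 9945 in the adjacent glands. Tumor values ran from 9.6 to 74.2 and set B gave 13.5 and 9.2, all under the floor. The 3 groups do not overlap. The fall was at least 242-fold by this probe set (limma adjusted p = 3.18e-12) and at least 174-fold by a second one. Ces1d belongs to a cluster of similar carboxylesterase genes, so its signal may include related transcripts.

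The genes of fatty acid capture fell by different amounts. Lpl encodes lipoprotein lipase. By its brighter probe set Lpl read 38649, 42238 and 55707 in the wild-type pools and 26681, 22970, 19055 and 30774 in the adjacent glands. Tumors gave 460, 1394, 713, 642 and 1098, and set B gave 825 and 1269. The groups form separate steps. Tumors were 56.4-fold below wild-type gland (-5.82 ± 0.30, SE, limma adjusted p = 1.63e-09).

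Cd36 encodes a membrane protein that takes up long-chain fatty acids in fat, muscle, endothelium and macrophages. Cd36 read 3736, 2876 and 3193 in the wild-type pools and 1365, 845, 1162 and 1976 in the adjacent glands. Tumors gave 38.6, 429, 913, 592 and 130, and set B gave 216 and 218. Tumor 22 was under the floor, tumor 26 lay above adjacent gland 25, and the tumors spanned at least 9.0002-fold. The fall against wild-type gland was 10.3-fold with tumor 22 at the floor (-3.37 ± 0.57, SE, limma adjusted p = 3.5e-04). With array lot as a fixed block Cd36 was not called (-2.96 ± 1.30, SE, limma adjusted p = 0.266). The other Cd36 probe set read 3.8 to 12.2 on all arrays.

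Fabp4 encodes a cytosolic fatty acid carrier of adipocytes, also made by macrophages and capillary endothelium. Fabp4 read 3423, 2398 and 3892 in the wild-type pools and 3387, 4081, 1883 and 2299 in the adjacent glands. Tumors gave 492, 884, 691, 523 and 673, and set B gave 665 and 506. Adjacent and wild-type values are mixed, and the tumors lie within 1.80-fold of each other below both. Its fall of 4.98-fold was the smallest of the 9 called (-2.31 ± 0.28, SE, limma adjusted p = 1.61e-05).

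**Figure D2:**
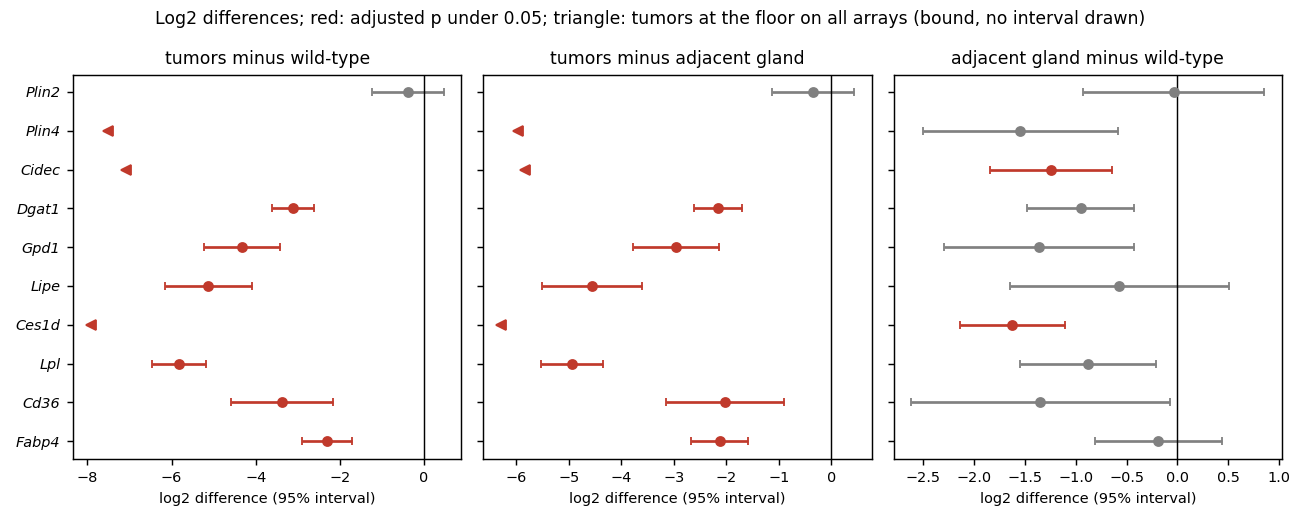
Log2 differences of the 10 genes between tumors and wild-type pools, tumors and adjacent gland, and adjacent gland and wild-type pools, with 95% intervals from limma, on a horizontal scale of its own in each panel. Red points were called (adjusted p under 0.05), grey were not, and triangles are bounds because all tumors lay at the floor. Plin2 alone was grey in both tumor panels, and Cidec and Ces1d alone were red in the adjacent panel.

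The 7 tumors spread differently from gene to gene. The highest over the lowest was 1.80-fold for Fabp4, 2.06-fold for Gpd1 and 2.07-fold for Dgat1, 3.03-fold for Lpl, 3.07-fold for Plin2, 4.26-fold for Lipe and, with tumor 22 at the floor, at least 9.0002-fold for Cd36. Tumor 22 had the lowest value for Lpl, Cd36, Fabp4 and Gpd1, and the lowest summed intensity of the adipocyte markers, 17263. Of this sum 4334 came from the marker Acly and 5865 from Me1, so it mostly follows its brightest genes. The marker Adipoq was lowest in set B tumor 81, at 264, and read 530 in tumor 22. Tumor 26 had the highest Cd36 and Dgat1 and the highest marker sum, 32833, with 8245 from Acly and 10452 from Me1. Other genes did not follow that sum. Lpl and Fabp4 were highest in tumor 24, Lipe and Gpd1 in tumor 50 and Plin2 in set B tumor 81. Tumor 24 was lowest for Plin2 and Lipe, and tumor 52 for Dgat1. The part of remaining fat tissue in this spread was not tested.

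Against adjacent gland, the first tumors were again lower for 9 genes, Plin2 being the exception. Of all probe sets tested, 9.04% were called lower and 5.34% higher, and the median log2 difference of the 10 genes was -3.76 against 0.07 over all. Every tumor lay below every adjacent gland for 8 genes, as for 7.85% of all probe sets tested. Plin4, Cidec and Ces1d were at least 62.2-fold, 57.1-fold and 78.3-fold lower. The other falls were 30.7-fold for Lpl (-4.94 ± 0.28), 23.5-fold for Lipe (-4.56 ± 0.45), 7.78-fold for Gpd1 (-2.96 ± 0.39), 4.46-fold for Dgat1 (-2.16 ± 0.22), 4.36-fold for Fabp4 (-2.12 ± 0.26) and, with tumor 22 at the floor, 4.06-fold for Cd36 (-2.02 ± 0.53), all with SE. The limma adjusted p was 0.0155 for Cd36 and under that for the others. Plin2 differed by -0.35 ± 0.37 (95% interval -1.13 to 0.43, limma adjusted p = 0.625). By the labels, arrays came from 5 lots, and lot 2001815 held adjacent glands 23 and 25 and tumors 22, 24 and 26. Within this lot the same comparison called 8 genes, with log2 differences from -1.76 for Dgat1 to -6.03 for Ces1d, beside 2.08% of all probe sets called lower and 0.348% higher. Cd36 was not called there (-1.65 ± 0.89, limma adjusted p = 0.427), nor without adjacent gland 51, where 6.93% of all probe sets were lower and 3.26% higher. It was also lost with lot as a fixed block (limma adjusted p = 0.266) and without the filter on dim signals (0.0615).

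In adjacent gland, all 10 genes had a mean below that of the wild-type pools and 2 were called lower. Ces1d fell 3.09-fold (-1.63 ± 0.24, SE, 4 and 3 arrays, limma adjusted p = 0.00554) and Cidec 2.37-fold (-1.25 ± 0.28, SE, limma adjusted p = 0.0449). With array lot as a random block Ces1d was called and Cidec was not (limma adjusted p = 0.00855 and 0.0717), and with lot as a fixed block neither was (0.24 and 0.832). Of all probe sets tested, 0.453% were called lower and 0.72% higher. The median log2 difference of the 10 genes was -1.10 against 0.07 over all probe sets tested. An unadjusted p under 0.05 was found for 7 of the 10, and for 1273 of 8616 probe sets in either direction. This comparison shares the wild-type pools with that of the tumors, so the 2 are not independent.

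For 6 genes, namely Plin4, Cidec, Lpl, Cd36, Dgat1 and Ces1d, every adjacent gland lay below every wild-type pool, as for 6.82% of all probe sets tested. Beside the 2 called, their log2 differences were -1.55 ± 0.45 for Plin4 (limma adjusted p = 0.105), -1.35 ± 0.60 for Cd36 (0.309), -0.95 ± 0.25 for Dgat1 (0.0723) and -0.88 ± 0.32 for Lpl (0.199). The other 4 overlapped the pools. Gpd1 differed by -1.36 ± 0.44 (limma adjusted p = 0.149), Lipe by -0.57 ± 0.51 (0.633), Fabp4 by -0.19 ± 0.29 (0.798) and Plin2 by -0.04 ± 0.42 (0.98). The second Ces1d probe set was called too (-1.43 ± 0.26, limma adjusted p = 0.0153). The second probe sets of Lpl (0.62 ± 0.27) and Dgat1 (0.21 ± 0.53) went the other way and that of Gpd1 was lower (-0.59 ± 0.40). None of these was called, and each overlapped between the groups.

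The adjacent glands differed among themselves. As a percentage of the geometric mean of the wild-type pools, Ces1d was 37.2%, 19.5%, 37.3% and 40.5% in glands 23, 25, 49 and 51. Cidec was 54.4%, 26.5%, 32.6% and 67.1%. Plin4 was 65.2%, 11.2%, 27.3% and 68.7%, and Gpd1 was 21.0%, 21.2%, 45.4% and 113%. Gland 51 had the highest value for 9 of the 10 genes, all but Fabp4, and gland 25 the lowest for 6. Plin2 reached 222% of wild-type in gland 51 and 61.9% to 86.2% in the other glands. The summed intensity of the adipocyte markers was also highest in gland 51, at 218953, against 118890 to 121226 in the other 3. Within this sum, Acly gave 58821 in gland 51 and 7081, 14370 and 14504 in glands 23, 25 and 49. Adipoq was highest in gland 51 too, at 45744, against 31979 to 40380 in the others. Other marker sums differed between the glands too. Brown adipocyte markers summed to 5226 and 4928 in glands 23 and 25 and to 26520 and 36751 in glands 49 and 51, and skeletal muscle markers to 50563 and 59883 in the first pair and 7109 and 7375 in the second. Milk secretion genes were highest in gland 51, at 727915, and lowest in gland 23, at 257654. The part of these tissues in the gland differences was not tested.

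Without gland 51, 5 genes were called lower in adjacent gland, namely Ces1d, Cidec, Plin4, Dgat1 and Gpd1, beside 1.16% of all probe sets. Without wild-type pool 42 none was called by limma, beside 0.0232% of all probe sets lower and 0.139% higher. Pool 42 had the highest Gapdh 3′ to 5′ ratio of all arrays, 1.48 in log2, and its part in these calls was not tested. Of the 20 alternative settings, Ces1d was called in 16 and Cidec in 4. Lot 2004907 held pool 40 and glands 49 and 51. Within this lot, with 1 wild-type pool, none of all 8616 probe sets was called, so none of the 10 genes could stand out, and the log2 difference was -1.35 for Ces1d and -0.98 for Cidec, while Plin2 and Lipe were at 0.40 and 0.38. Pools 41 and 42 were in a lot of their own and glands 23 and 25 shared theirs with tumors only, so for these arrays lot and group cannot be told apart.

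**Figure D3:**
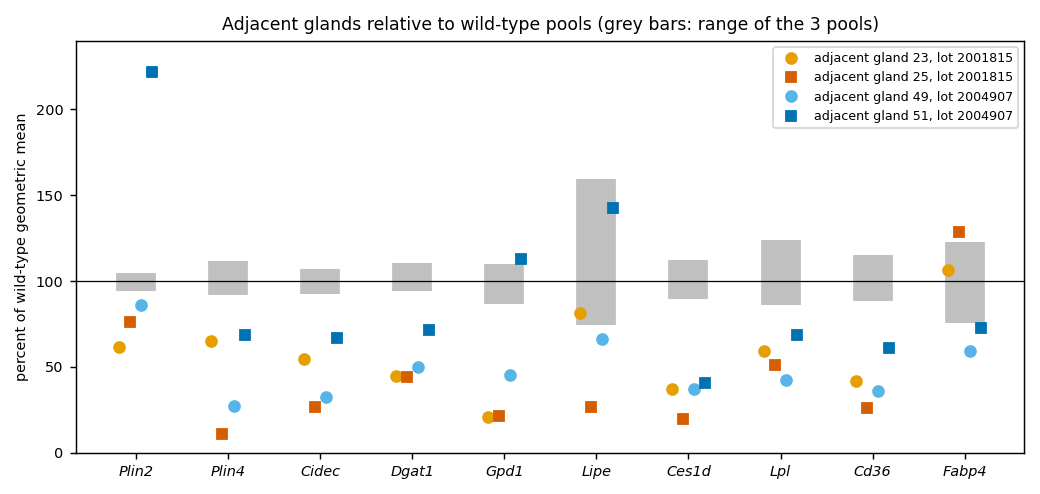
Intensity of the 10 genes in the 4 adjacent glands as a percentage of the geometric mean of the 3 wild-type pools, whose range is the grey bar; colours give the gland and its array lot. Gland 51 lies highest for 9 genes, Plin2 at 222%, and all 4 glands lie under the grey bar for Plin4, Cidec, Dgat1, Ces1d, Lpl and Cd36.

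The 2 probe sets of Lpl moved apart in adjacent gland. By the dimmer one, Lpl read 4814, 6236 and 6118 in the wild-type pools, 8339, 10330, 5665 and 12022 in the adjacent glands, and 391.6 to 675.2 in the first tumors. Its difference between adjacent and wild-type gland was 0.62 ± 0.27 (SE, limma adjusted p = 0.284), where the brighter one gave -0.88. In tumors both fell, the dimmer by 12.6-fold (-3.66 ± 0.25, SE). The log2 difference of the brighter minus the dimmer within an array was 2.76 to 3.19 in the wild-type pools, 1.15 to 1.75 in the adjacent glands and 0.08 to 1.49 in the first tumors. Adjacent and wild-type arrays did not overlap in it (means 1.48 and 2.98, exact two-sided permutation p = 0.0571, the smallest that 4 against 3 arrays allow), nor did tumors and wild-type arrays (-2.16, exact p = 0.0357, the smallest that 5 against 3 allow). Between tumors and adjacent gland it differed by -0.66 (exact p = 0.0635). This contrast was chosen after the values were seen, with 3 comparisons made.

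**Figure D4:**
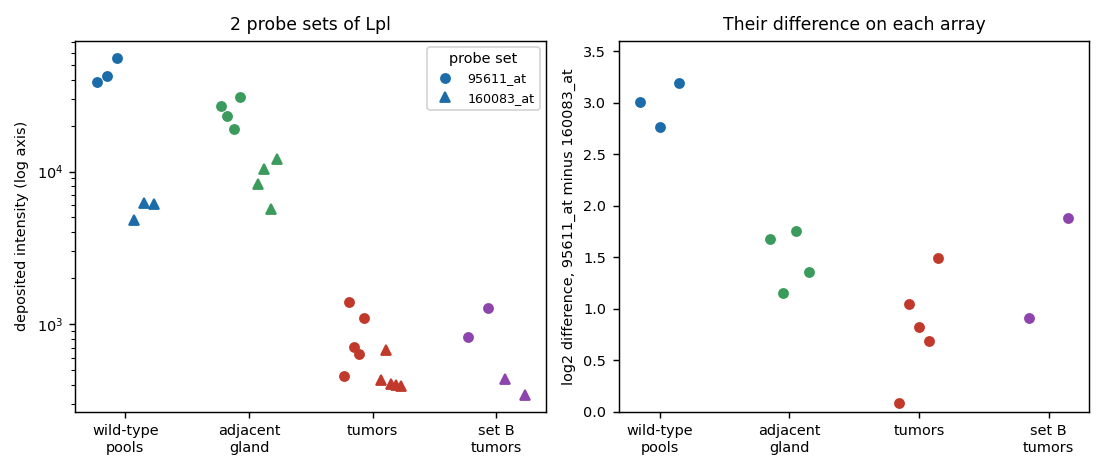
Deposited intensity of the 2 Lpl probe sets (left, log axis) and their log2 difference on each array (right), 1 point per array in the 3 wild-type pools, 4 adjacent glands, 5 tumors and 2 set B tumors. The difference lies between 2.76 and 3.19 in the wild-type pools and at or below 1.88 on all other arrays.

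Each gene was also set against the adipocyte markers of the same array, as its log2 value minus the mean log2 of the markers, over markers and genes not wholly at the floor in the groups compared. In tumors against wild-type gland the 10 markers fell by 4.20 on average, from -1.60 for Me1 to -8.03 for Retn, and 7 genes could be tested. Retn was under the floor in tumors 22, 24, 26 and 50 and Pparg in tumors 22, 26 and 52, so their falls are bounds. The mean and the values relative to it depend on the floor to that extent. Relative to the mean, Plin2 changed by 3.81, Fabp4 by 1.88 and Dgat1 by 1.09, and Lpl by -1.62. For each of these 4 the 5 tumors and 3 pools did not overlap (exact two-sided permutation p = 0.0357, the smallest possible). Cd36 (0.83, exact p = 0.321), Lipe (-0.93, exact p = 0.214) and Gpd1 (-0.13, exact p = 0.679) overlapped. The markers spread as widely: set against the mean of the others in the same way, 8 of the 10 did not overlap between the groups either, with changes from -4.26 to 2.88. Plin2 alone of the 7 genes lay outside that range, so for the other 6 a distance from the mean does not set them apart from fat markers.

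Against adjacent gland the markers fell by 3.13 on average, from -0.36 for Me1 to -7.12 for Retn, with the same tumors at the floor for Retn and Pparg. Plin2 changed by 2.78, Fabp4 by 1.001, Dgat1 by 0.97 and Lpl by -1.81 relative to that mean (exact two-sided permutation p = 0.0159 each, the smallest that 5 against 4 arrays allow). Lipe fell by 1.43 more than the mean (exact p = 0.0476), while Cd36 (1.10, exact p = 0.206) and Gpd1 (0.17, exact p = 0.714) overlapped. Here 7 of the 10 markers did not overlap either, with changes from -4.44 to 3.08 relative to the others, and all 7 genes lay inside that range. Plin2 (-0.35) differed from adjacent gland by about as much as the marker Me1. Both comparisons share the tumors. Between adjacent and wild-type gland 11 markers differed by -1.08 on average and moved more alike, within -0.32 to 0.34 of each other's mean. Of the 10 genes tested there, 5 lay within that range. The others were Plin2 at 1.04, Fabp4 at 0.89, Lipe at 0.50, Plin4 at -0.47 and Ces1d at -0.55. Plin2 was the furthest (exact two-sided permutation p = 0.0571, the smallest possible, and 0.571 after Benjamini-Hochberg adjustment).

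**Figure D5:**
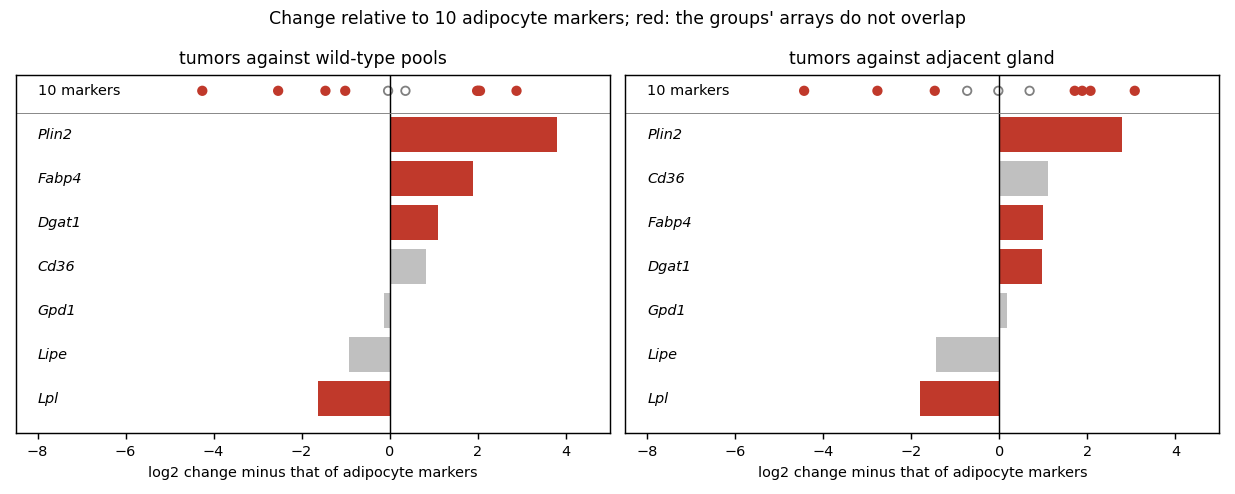
Log2 change of 7 genes (bars) minus the mean log2 change of 10 adipocyte markers, and of each marker minus the mean of the others (circles, top), for tumors against wild-type pools (left) and against adjacent gland (right); Plin4, Cidec and Ces1d are left out because all tumors lay at the floor. Red marks values that did not overlap between the groups, which held for 4 genes in both panels and for 8 and 7 of the markers, and Plin2 at left is the only bar beyond the circles.

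The set B tumors were lower than wild-type gland for the same genes. Against wild-type gland all but Plin2, 9 in number, were called lower, beside 12% of all probe sets lower and 11.2% higher, with a median log2 difference of -4.50 against 0.05 over all. Plin4, Cidec and Ces1d were again at the floor. Lpl was 44.0-fold lower, Gpd1 22.9-fold, Lipe 22.4-fold, Cd36 14.98-fold, Dgat1 8.01-fold and Fabp4 5.47-fold. Plin2 lay above every wild-type pool in both set B tumors, with a difference of 0.27 ± 0.50 (limma adjusted p = 0.756). Between set B and the first tumors none of the 10 genes was called by limma, and of all probe sets 0% were. At an unadjusted p under 0.05 there were 0 of the 10 genes and 932 of 8616 probe sets. The 95% intervals of the difference were -0.32 to 1.63 for Plin2, -0.37 to 1.09 for Lpl, -0.54 to 1.83 for Lipe and -1.93 to 0.86 for Cd36. Those of Fabp4 and Dgat1 were narrower, -0.82 to 0.55 and -0.47 to 0.68.

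Beyond the 10 genes, 5 lists of fat storage and transport genes held 80 other symbols, of which 36 were tested. In tumors against wild-type gland 18 of the 36 were called lower and 4 higher, with a median log2 difference of -1.07, beside 14.1% lower, 15.8% higher and a median of 0.16 over all probe sets. At the droplet, 3 of 6 fell and 1 rose. Cidea, a CIDE protein of brown fat and milk-forming epithelium, changed by -4.44 ± 0.72, Cav1, the caveolar coat protein, by -4.24 ± 0.38, and Bscl2, the seipin of droplet formation, by -1.33 ± 0.18. Rab18, a small GTPase found on droplets, changed by 0.79 ± 0.15.

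Of 7 lipolysis genes 5 fell and none rose. Pnpla2, the lipase that starts triglyceride breakdown, changed by -2.68 ± 0.19, and Mgll, which ends it by splitting monoacylglycerol, by -2.96 ± 0.27. Adcy3, an adenylyl cyclase, changed by -1.84 ± 0.35 and Aqp7, a glycerol channel, by -1.74 ± 0.35. Of 9 genes of lipoprotein lipolysis and uptake 4 fell and 1 rose. Slc27a1, a fatty acid transporter of fat and muscle, changed by -4.52 ± 0.39 with tumor 50 under the floor. The lipoprotein receptor Lrp1 changed by -2.24 ± 0.21 and the Lpl inhibitor Angptl4 by -1.77 ± 0.43. Slc27a4, another transporter of that family, changed by 1.44 ± 0.32.

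Of 6 carriers and acyl-CoA synthetases 1 fell, Fabp3 (-2.88 ± 0.96, a bound with tumors 50 and 52 under the floor), and 1 rose, Acsl4 (4.33 ± 0.27). Of 8 genes listed for triglyceride synthesis and glycerol supply 5 fell and 1 rose. A place in this list does not say whether a gene makes or uses glycerol 3-phosphate. Pck1, which supplies glycerol 3-phosphate from smaller precursors, changed by -6.21 ± 0.46, Gpd2 by -2.51 ± 0.41, Lpin1 by -2.48 ± 0.34 and Gpam by -2.41 ± 0.22. For Pck1 this is a bound, since tumors 22, 24, 50 and 52 lay under the floor. The gene that rose, Agpat1 (1.02 ± 0.26), is named because it was the only one, after its value was seen. Errors here are SE of the limma fit.

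Of the same 36 genes, 14 were lower and 2 higher in tumors than in adjacent gland, with a median of -0.61, beside 9.04%, 5.34% and 0.07 over all probe sets. In adjacent against wild-type gland 1 was lower and 1 higher, with a median of -0.38, beside 0.453%, 0.72% and 0.07. These counts are too few to describe the list. They were Gpam, which starts glycerolipid synthesis (-1.24 ± 0.23, SE, limma adjusted p = 0.0153), and Acsl4 (2.56 ± 0.28, SE, limma adjusted p = 0.001). Set B gave 18 lower and 2 higher against wild-type gland and none against the first tumors, where none of all probe sets was called.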

How the data were processed

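The authors deposited linear intensities of the 14 arrays, 1 value for each probe set, which they had already scaled: the mean after trimming 2% was alike on all arrays. The software they used was not in the labels read here. Control probe sets (66) were kept from the tests. Before log2, values under 101.42, the 20th percentile over the whole table, were raised to that value. A probe set was tested where at least 3 arrays had it above their own 40th percentile, which 8616 did. All 14 arrays entered 1 model with 4 groups (limma 3.58.1, R 4.3.3, lmFit, eBayes with trend). p-values were two-sided and adjusted by Benjamini-Hochberg within a comparison over all probe sets tested. The fit was tested on simulated data.

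Genes came from the platform annotation, with symbols updated by gene number. All 10 genes are named with every probe set, the brightest by mean log2 standing for the gene. Of other pathway genes up to 4 called per list with the largest change are named, and Agpat1 besides. Differences from adipocyte markers used exact permutation over arrays, and each marker was set against the others in the same way, a check chosen after the values were seen. The 10 genes, the lists and the tests were chosen with earlier results of these data known. Alternatives were the floor, the filter, the scaling, array lot as a block or within a lot, the trend, the groups in the fit, other probe sets and leaving out each array. The number of arrays limits the precision.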

Additional observations from a re-analysis of the deposited data

Results flagged for a closer look

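In the adjacent glands, Ces1d read 4790.3 in gland 25, below the 9126 to 9945 of the other 3 glands. On the log2 scale, the gap to the nearest value was 0.88 of the group's range, above the critical value of 0.829 for 4 samples. It was the only such value in 17 groups of 4 or 5 arrays examined, and chance flags about 1 in 20 groups. Gland 25 also had the lowest Plin4, Cidec, Lipe, Cd36 and Dgat1 of the adjacent glands, and the call of Ces1d was kept without it (log2 difference -1.38).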

How the results depend on the processing

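No paired analysis was run, because the labels do not say which tumors and adjacent glands share an animal. Every sample has a number of its own, so the numbers cannot settle this. Some follow each other, such as tumor 22 and gland 23 or gland 49 and tumor 50, and the labels do not say why. The tests treated all samples as independent. In tumors against wild-type gland the 9 genes called numbered 8 with lot as a fixed block, where Cd36 was lost, and 9 under the other 19 alternatives, and against adjacent gland 8 or 9. By the lots of the labels, none held both tumors and wild-type pools, so that block rests on the adjacent glands. It could not be fitted for set B. Lots 2004097 and 2004907 differ only by swapped digits, and whether they are the same lot is not known. As 1 lot they would hold wild-type pool 40, adjacent glands 49 and 51 and tumors 50 and 52. With lot as a block, all probe sets called fell from 2574 to 360 (921 with lots 2004097 and 2004907 read as one). The 2 genes called in adjacent gland were 1 with the floor at the 10th percentile, a pseudocount of 50, no filter, quantile normalization, lot as a random block, no trend, or only the 2 groups in the fit. They were 0 with lot as a fixed block, with the 2 lots as one and within lot 2004907, and 0 to 5 leaving out 1 array. All probe sets called there were 101, and 53 without the filter, 56 with lot as a fixed block, 26 with the 2 lots as one, 0 within the lot, 28 with the 2 groups alone and 14 to 200 leaving out 1 array. Plin2, never called, turned sign in tumors against wild-type gland with lot as a block (0.24, and 0.083 with the lots as one). It did so in adjacent gland with quantile normalization (0.10), lot as a fixed block or within the lot (0.40), the lots as one (0.34), lot as a random block (0.055), and leaving out 1 array (-0.43 to 0.18). Against adjacent gland Plin2 ran from -0.57 to 0.048 leaving out 1 array. Lipe in adjacent gland was 0.38 with lot as a fixed block or within the lot and 0.29 with the lots as one. Other probe sets gave 0.62 for Lpl and 0.21 for Dgat1 in adjacent gland, 0.14 for Dgat1 in set B against wild-type gland and -0.21 for Lpl in set B against the first tumors. In that last comparison Fabp4 was 0.014 with quantile normalization, 0.033 with a common median and -0.33 to 0.060 leaving out 1 array, and Dgat1 was -0.060 to 0.28. All probe sets called in tumors against adjacent gland fell from 1239 to 597 with lot as a block and 209 within lot 2001815. Set B against wild-type gland called 1998 probe sets, and 1053 to 1664 leaving out 1 array. The genes whose values relative to the mean of the adipocyte markers differed between tumors and adjacent gland, after Benjamini-Hochberg adjustment over the 7 tested, were 4, and 0 without any 1 of the 9 arrays. With 1 array fewer the smallest p is 0.0357 or 0.0286, which adjusts to 0.05 or 0.0625 for the 4 or 5 genes that reached it. For this reason none passed between tumors and wild-type gland, where 4 had the smallest p. The cause of the other changes was not tested.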
